A study of Mus musculus with 12 samples.

Results

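The 38 genes described here mark T cells and natural killer (NK) cells, and were followed across 12 day-10 dorsal skin wounds. They were listed by symbol, and all 38 of 38 were found among the 54232 Ensembl gene identifiers of the count files. Each had more than 15 counts summed over the libraries, the minimum set for keeping a gene. All 38 also passed the filter on low counts and entered the fit across 18618 genes.

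Every wound came from a male mouse of genotype Lepr (db/db) on the C57BLKS/J background, with a labelled age of 12.5 weeks. The db/db mutation disables the leptin receptor and gives an obese, diabetic mouse in which wounds close slowly. All groups carry it, so no non-diabetic animal is in the comparison. A full-thickness punch wound of 6 mm was made at 12 weeks by the study's design text and collected on day 10, which does not match the labelled age. In the TD group (5 libraries) the wound cover was a Tegaderm film dressing alone. In the Strain group (4 libraries) it was a patch built to impose about 30% strain, and in the No Strain group (3 libraries) a patch that imposes none. Total counts ran from 20354677 to 25059371 per library.

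T cells recognise antigen through a receptor of alpha and beta chains or of gamma and delta chains, held at the surface with the CD3 chains that carry the signal inward. Skin holds both kinds: gamma delta T cells in epidermis and dermis, and alpha beta helper, cytotoxic and regulatory T cells that enter from blood. NK cells lack that receptor and kill with perforin and granzymes under the control of activating and inhibitory receptors. Interleukin 17A from type 17 lymphocytes draws neutrophils to skin, and interferon gamma from NK cells and type 1 T cells activates macrophages.

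More of these genes were called against TD than over all genes in both patch groups. A gene was called where the edgeR quasi-likelihood test gave a p under 0.05 after Benjamini-Hochberg adjustment over all 18618 genes. For Strain against TD, 19 of 38 genes passed, all 19 higher, where 12.6% of all genes passed (6.2% higher and 6.41% lower). For No Strain against TD, 17 were higher and 1 lower, where 17.8% of all genes passed (9.35% higher and 8.4% lower). With the mean of both patch groups set against TD, 25 were higher and 1 lower, where 24.4% passed (12.4% higher and 12.1% lower). Between Strain and No Strain 0 of 38 passed, as did 0 of all genes (0%) in edgeR. By DESeq2, 0 members and 33 genes in all (0.177%) passed there.

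At an unadjusted p under 0.05 the members numbered 30 for Strain, 26 for No Strain and 31 for both patches, beside 29.5%, 33.5% and 38% of all genes. All libraries of a patch group lay above all TD libraries for 9 members in Strain, where 14.6% of genes did not overlap (7.47% higher and 7.15% lower). The same held for 23 members in No Strain, with 1 below, where 26.7% did not overlap (14.3% higher and 12.5% lower). With both patch groups joined it held for 9 members, where 11% did not overlap (5.73% higher and 5.27% lower).

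The median log2 fold change over the 38 genes was 1.06 for Strain against TD, beside 0.02 over all genes. It was 1.02 for No Strain against TD, beside 0.0045 over all genes. Both comparisons use the same TD libraries. A biopsy gives 1 value per gene for all its cells, so more cells of a type and more RNA per cell cannot be told apart.

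The promoters of 5 of these genes are shown as examples that differ in the short motifs they hold. They were picked with their values and motifs known and do not stand for the whole list. RefSeq promoters on GRCm38.p6 were found for 26 of the 38 genes (32 windows), and the 250 bases before the start site were read 5′ to 3′. Capitals mark matches on either strand to TGTGGT (RUNX), AGGTCA (nuclear receptors), TGANTCA (AP-1), GGAAAA (NFAT) and GGTGTGA (T-box). No 2 matches overlap in these windows.
Il17a, chr1:20730655-20730904, plus strand: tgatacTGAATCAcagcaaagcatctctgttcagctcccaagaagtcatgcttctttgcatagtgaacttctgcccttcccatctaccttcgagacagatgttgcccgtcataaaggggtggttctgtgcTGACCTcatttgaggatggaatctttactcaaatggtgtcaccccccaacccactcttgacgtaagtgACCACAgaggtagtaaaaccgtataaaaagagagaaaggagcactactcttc
Ifng, chr10:118440796-118441045, plus strand: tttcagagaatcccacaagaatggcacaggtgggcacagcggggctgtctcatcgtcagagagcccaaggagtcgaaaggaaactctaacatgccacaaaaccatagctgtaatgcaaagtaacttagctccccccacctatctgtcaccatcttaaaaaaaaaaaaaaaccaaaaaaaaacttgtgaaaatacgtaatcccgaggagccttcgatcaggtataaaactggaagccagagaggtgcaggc
Gzma, chr13:113100982-113101231, minus strand: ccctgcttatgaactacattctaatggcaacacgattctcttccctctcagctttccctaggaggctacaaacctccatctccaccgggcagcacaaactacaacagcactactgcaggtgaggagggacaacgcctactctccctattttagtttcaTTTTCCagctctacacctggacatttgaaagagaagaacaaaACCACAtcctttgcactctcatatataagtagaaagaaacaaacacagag
Gzmb, chr14:56262335-56262584, minus strand: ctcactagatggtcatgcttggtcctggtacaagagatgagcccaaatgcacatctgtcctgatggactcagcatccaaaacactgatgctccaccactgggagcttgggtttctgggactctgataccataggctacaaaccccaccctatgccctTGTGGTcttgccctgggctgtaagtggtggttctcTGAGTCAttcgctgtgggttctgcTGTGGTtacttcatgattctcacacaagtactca
Ncr1, chr7:4337465-4337714, plus strand: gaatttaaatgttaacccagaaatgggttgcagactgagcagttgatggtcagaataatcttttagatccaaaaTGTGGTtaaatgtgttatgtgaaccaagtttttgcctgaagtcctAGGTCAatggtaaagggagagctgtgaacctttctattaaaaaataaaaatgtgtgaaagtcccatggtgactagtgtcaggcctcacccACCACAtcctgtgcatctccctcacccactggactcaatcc
The Il17a window held 1 RUNX, 1 AGGTCA and 1 AP-1 match. Gzmb held 2 RUNX and 1 AP-1 match, Ncr1 held 2 RUNX and 1 AGGTCA match, and Gzma held 1 RUNX and 1 NFAT match. The Ifng window held none of the 5 motifs. Over the members, RUNX letters were in 34.4% of the 32 windows, beside 14.0% of all 32851 promoter windows of that length. AGGTCA letters were in 18.8% against 14.0%, NFAT letters in 18.8% against 20.4%, AP-1 in 6.25% against 6.75% and T-box in 3.12% against 3.33%. Some genes have several windows that overlap, and a match of letters is not a binding site.

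**Figure D1:**
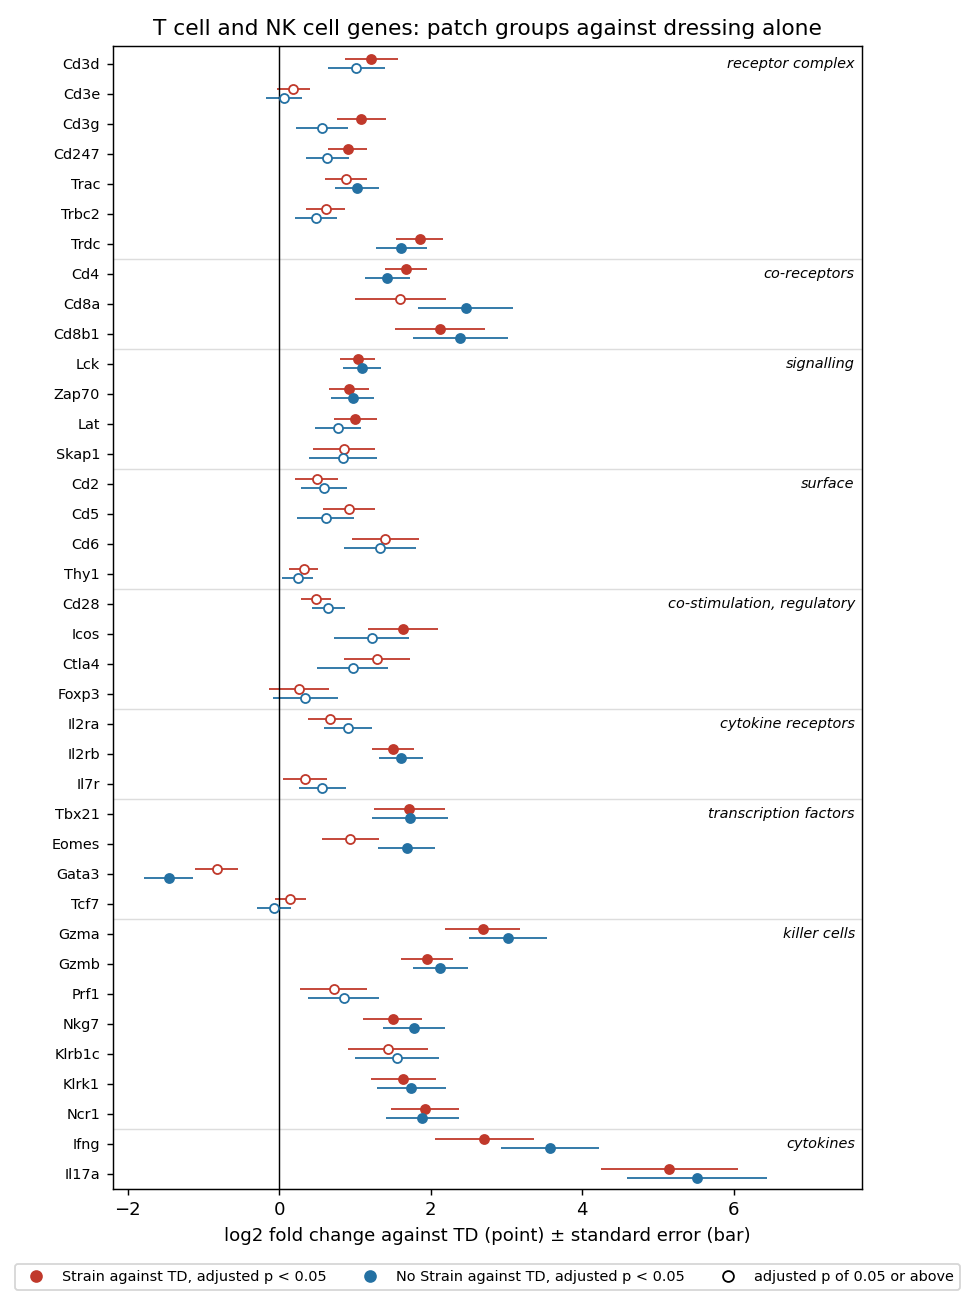
Log2 fold change against TD of the 38 genes (x axis), grouped by role (y axis), for Strain (red) and No Strain (blue). Bars are standard errors and filled points have an adjusted p under 0.05. Il17a lies farthest to the right, at 5.15 and 5.51, and Gata3 farthest to the left, at -0.82 and -1.46.

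Levels are given as CPM, the counts of a gene scaled to a common library total with TMM factors, in the order of replicates 1 to 5 of TD, 1 to 4 of Strain and 1 to 3 of No Strain. The 2 cytokines of the list came first by size. Interleukin 17A (Il17a, chr1:20730905-20734496 on GRCm38) had 3, 1, 1, 3 and 2 counts in TD, 84, 153, 11 and 21 counts in Strain and 107, 38 and 120 counts in No Strain. In CPM these were 0.123, 0.0411, 0.0399, 0.121 and 0.0877 CPM in TD, 4.17, 6.89, 0.428 and 1.01 CPM in Strain and 4.82, 1.63 and 5.58 CPM in No Strain. It was at or under 3 counts in all TD libraries and above that in all 7 patch libraries, so the groups did not overlap. The pooled rate in Strain was 36.7 times that in TD (95% exact interval 19.7 to 77.4, counting error only), and in No Strain 47.9 times (25.7 to 101.1). The fitted log2 fold changes were 5.15 (standard error 0.90, edgeR adjusted p = 0.00869) for Strain and 5.51 (standard error 0.92, edgeR adjusted p = 0.00446) for No Strain. Within Strain, replicates 1 and 2 were high and replicates 3 and 4 low.

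Interferon gamma (Ifng, chr10:118441046-118445892) had 3, 4, 5, 2 and 3 counts in TD, 4, 42, 22 and 17 counts in Strain and 59, 46 and 12 counts in No Strain. Strain replicate 1 lay within the TD range and the other 6 patch libraries above it. The pooled rate was 6.82 times that of TD in Strain (95% exact interval 4.02 to 12.3) and 12.5 times in No Strain (7.45 to 22.1). Fitted log2 fold changes were 2.71 (standard error 0.65, edgeR adjusted p = 0.0236) and 3.58 (standard error 0.65, edgeR adjusted p = 0.00582). Ifng shares 336 exon bases with the annotated gene Gm49751, which had 27 counts over all libraries. In Strain replicate 1, Il17a was at 4.17 CPM and Ifng at 0.199 CPM.

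**Figure D2:**
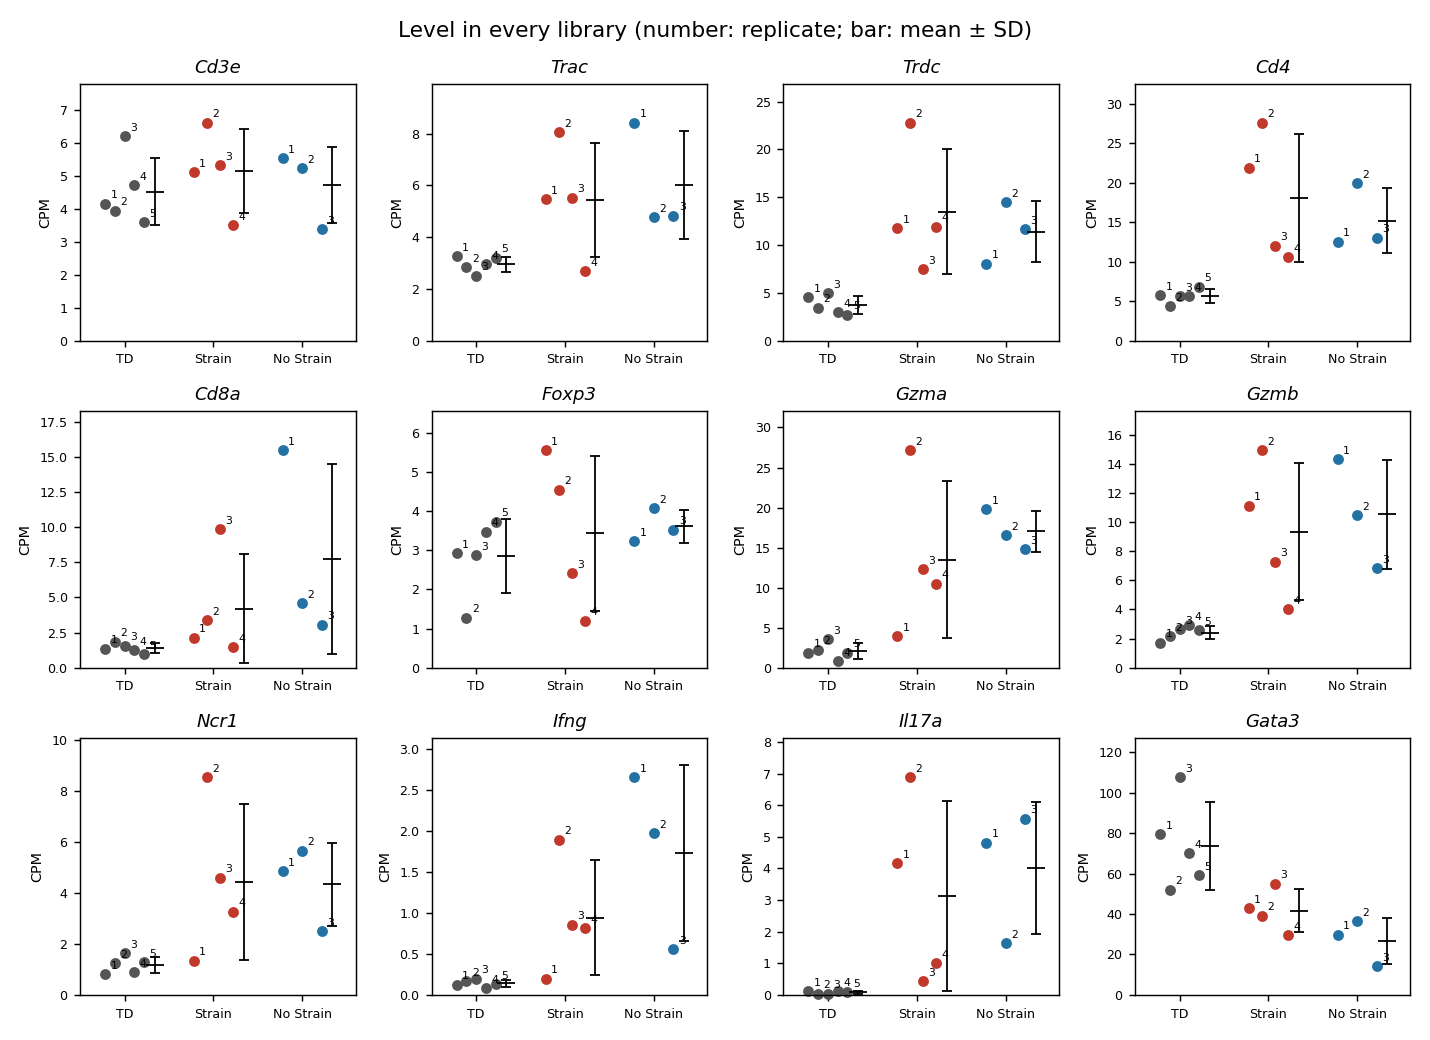
CPM of 12 of the genes in each library (points, numbered by replicate) with the group mean ± SD beside them. Il17a and Cd4 lie higher in all 7 patch libraries than in TD, Cd3e overlaps in all groups, and Ncr1 in Strain replicate 1 lies at the TD level.

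Among the chains of the T cell receptor complex, the delta constant gene had the largest fold change. Trdc, the constant region of the delta chain, had 4.53, 3.45, 4.94, 2.95 and 2.72 CPM in TD, 11.8, 22.8, 7.48 and 11.9 CPM in Strain and 8.06, 14.5 and 11.7 CPM in No Strain. All 7 patch libraries lay above all 5 TD libraries, and the log2 fold changes were 1.85 (standard error 0.31, edgeR adjusted p = 0.00768) for Strain and 1.61 (standard error 0.33, edgeR adjusted p = 0.00971) for No Strain. The constant region of the alpha chain, Trac, had 3.25, 2.83, 2.51, 2.95 and 3.20 CPM in TD, 5.47, 8.06, 5.53 and 2.68 CPM in Strain and 8.42, 4.76 and 4.83 CPM in No Strain. It rose for No Strain, by 1.02 (standard error 0.29, edgeR adjusted p = 0.0338) on the log2 scale, with no overlap. For Strain its log2 fold change of 0.88 (standard error 0.27, edgeR adjusted p = 0.0550) did not pass, and replicate 4 lay within the TD range. Trbc2, a constant region of the beta chain, had 9.59, 6.90, 8.93, 8.76 and 7.67 CPM in TD, 13.5, 17.8, 12.7 and 7.24 CPM in Strain and 16.9, 10.7 and 7.57 CPM in No Strain. Its log2 fold changes of 0.61 (standard error 0.26, edgeR adjusted p = 0.141) and 0.49 (standard error 0.28, edgeR adjusted p = 0.255) did not pass.

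The CD3 genes Cd3e, Cd3d and Cd3g lie side by side on chromosome 9, from 44969572 to 45009627, and are described in turn. Cd3e had 4.15, 3.94, 6.22, 4.72 and 3.59 CPM in TD, 5.12, 6.62, 5.33 and 3.50 CPM in Strain and 5.54, 5.23 and 3.39 CPM in No Strain. Its groups overlapped, and its log2 fold changes were 0.18 (standard error 0.22, edgeR adjusted p = 0.619) and 0.06 (standard error 0.24, edgeR adjusted p = 0.891). Cd3d had 2.02, 0.863, 1.43, 2.06 and 2.19 CPM in TD, 3.38, 6.44, 4.05 and 2.01 CPM in Strain and 4.91, 2.92 and 2.60 CPM in No Strain, a log2 fold change of 1.21 (standard error 0.35, edgeR adjusted p = 0.0442) for Strain. For No Strain it was 1.02 (standard error 0.38, edgeR adjusted p = 0.0834), without a call although the libraries did not overlap. Cd3g had 5.31, 3.70, 7.97, 5.94 and 5.79 CPM in TD, 11.3, 19.8, 11.1 and 6.61 CPM in Strain and 9.05, 11.2 and 5.20 CPM in No Strain. It rose for Strain, by 1.09 (standard error 0.32, edgeR adjusted p = 0.0460), with overlap. For No Strain it was 0.57 (standard error 0.35, edgeR adjusted p = 0.280), not a call. Whether Cd3e differs in change from Cd3d or Cd3g was not tested.

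Cd247 encodes the CD3 zeta chain, which holds most of the signalling motifs of the complex. It had 4.48, 2.30, 4.30, 4.08 and 3.46 CPM in TD, 6.71, 11.2, 5.22 and 4.79 CPM in Strain and 6.21, 6.14 and 5.02 CPM in No Strain. All patch libraries lay above TD, and the log2 fold change for Strain was 0.90 (standard error 0.26, edgeR adjusted p = 0.0421) and for No Strain 0.63 (standard error 0.28, edgeR adjusted p = 0.139), the second not a call. In the annotation 3007 of its 5329 exon bases overlap Pou2f1 on the opposite strand. The strand setting of the counting is not given, so reads from the 2 genes cannot be told apart. Summed over Cd3d, Cd3e, Cd3g, Cd247, Trac and Trbc2, the level ran from 20.5 to 31.4 CPM in TD, 26.8 to 69.9 CPM in Strain and 28.6 to 51.0 CPM in No Strain.

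Delta chain counts were next set beside the variable segments of the gamma and delta loci, since these name subsets of gamma delta T cells. In mice the epidermal subset uses Tcrg-V5 with Trdv4, while a dermal subset known for interleukin 17 uses Tcrg-V6 with Trdv4. Tcrg-V6, singled out after its values were seen, had 5, 3, 3, 2 and 3 counts in TD, 23, 42, 19 and 13 counts in Strain and 8, 20 and 3 counts in No Strain. All Strain libraries lay above TD, with a log2 fold change of 3.00 (standard error 0.52, edgeR adjusted p = 0.00791). In No Strain the groups overlapped and the change of 1.75 (standard error 0.61, edgeR adjusted p = 0.0667) did not pass. Tcrg-V5 had 8, 7, 18, 12 and 13 counts in TD, 0, 7, 12 and 5 counts in Strain and 2, 8 and 2 counts in No Strain. Its log2 fold changes were -0.84 (standard error 0.58, edgeR adjusted p = 0.366) and -1.40 (standard error 0.69, edgeR adjusted p = 0.180), neither a call. Trdv4, shared by both subsets, had 37, 33, 69, 30 and 33 counts in TD, 91, 163, 84 and 67 counts in Strain and 39, 108 and 57 counts in No Strain. It rose for Strain, by 1.46 (standard error 0.35, edgeR adjusted p = 0.0235) with no overlap, and its change of 0.86 (standard error 0.38, edgeR adjusted p = 0.140) for No Strain did not pass. The gamma constant genes, named after their values were seen, were also read. For Strain, Tcrg-C1 and Tcrg-C2 rose, by 1.45 (standard error 0.39, edgeR adjusted p = 0.0330) and 1.71 (standard error 0.43, edgeR adjusted p = 0.0279), and Tcrg-C4 at 0.83 (standard error 0.40, edgeR adjusted p = 0.190) did not pass. For No Strain the 3 values of 0.46 (standard error 0.43, edgeR adjusted p = 0.485), 0.86 (standard error 0.48, edgeR adjusted p = 0.243) and 0.04 (standard error 0.46, edgeR adjusted p = 0.969) did not pass. The differences between Strain and No Strain in these 3 did not pass either, and the largest was 0.99 (standard error 0.45, edgeR adjusted p = 0.872), for Tcrg-C1. Between Strain and No Strain the difference in Tcrg-V6 was 1.25 (standard error 0.52, edgeR adjusted p = 0.872) and did not pass.

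**Figure D3:**
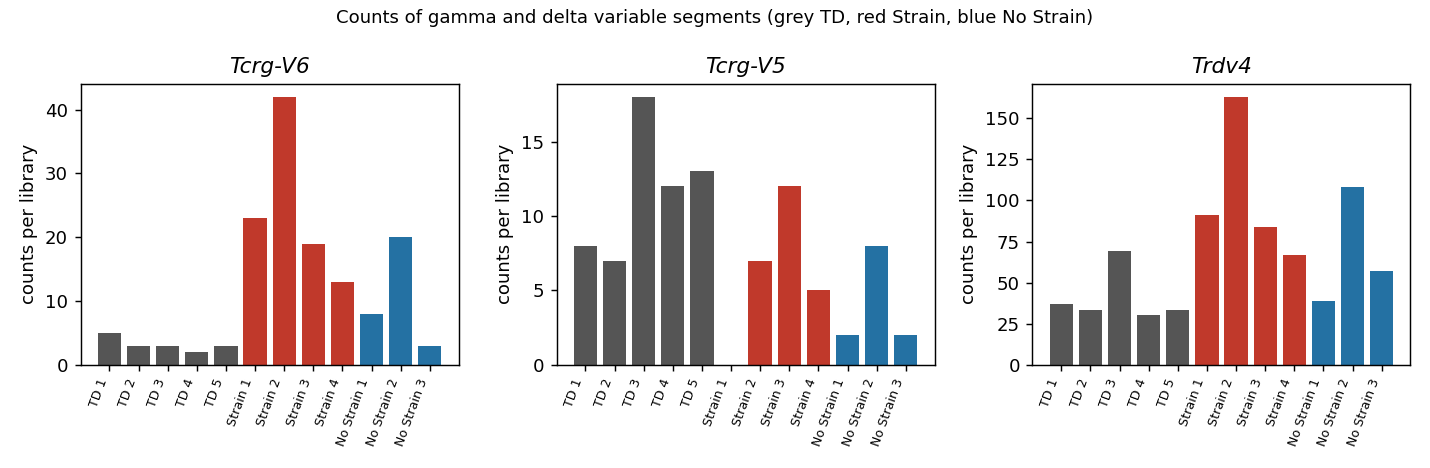
Counts in each library (bars) of 2 gamma variable segments and 1 delta variable segment. Tcrg-V6 had 2 to 5 counts in TD and 13 to 42 in Strain, while Tcrg-V5 had 7 to 18 in TD and 0 to 12 in Strain.

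The ratio of Trdc to Trac counts in a library describes the balance of delta to alpha chain RNA, and was not tested. Its range was 0.849 to 1.97 in TD, 1.35 to 4.43 in Strain and 0.957 to 3.04 in No Strain. No Strain replicate 1 and Strain replicate 3 lay within the TD range, and the other 5 patch libraries above it.

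The co-receptors followed. CD4 marks helper and regulatory T cells and some mouse dendritic cells and macrophages. Cd4 had 5.72, 4.35, 5.62, 5.65 and 6.84 CPM in TD, 21.9, 27.6, 12.0 and 10.6 CPM in Strain and 12.5, 19.9 and 13.1 CPM in No Strain. No patch library overlapped TD. Log2 fold changes were 1.68 (standard error 0.28, edgeR adjusted p = 0.00736) for Strain and 1.43 (standard error 0.30, edgeR adjusted p = 0.00990) for No Strain. The CD8 alpha chain gene Cd8a (chr6:71373427-71379173) marks cytotoxic T cells and had 1.36, 1.85, 1.55, 1.25 and 0.965 CPM in TD, 2.14, 3.38, 9.85 and 1.44 CPM in Strain and 15.5, 4.59 and 3.07 CPM in No Strain. No Strain replicate 1 and Strain replicate 3 stood high. It rose for No Strain, by 2.46 (standard error 0.63, edgeR adjusted p = 0.0228), and the change of 1.60 (standard error 0.60, edgeR adjusted p = 0.101) for Strain did not pass. Without No Strain replicate 1 the first became 1.45 (edgeR adjusted p = 0.148) and was lost. Its neighbour Cd8b1, the beta chain found on conventional cytotoxic T cells, had 0.617, 0.493, 0.239, 0.606 and 0.877 CPM in TD, 0.944, 1.85, 5.92 and 1.05 CPM in Strain and 5.04, 2.19 and 1.72 CPM in No Strain. It was high in the same 2 libraries, with log2 fold changes of 2.12 (standard error 0.60, edgeR adjusted p = 0.0402) and 2.39 (standard error 0.63, edgeR adjusted p = 0.0252) and no overlap with TD in either comparison.

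Of 4 genes of receptor signalling, Lck and Zap70 rose in both patch groups and Lat in Strain. The kinase that starts the signal, Lck, had 5.06, 3.70, 4.94, 5.98 and 5.04 CPM in TD, 9.24, 14.4, 10.6 and 6.33 CPM in Strain and 13.7, 10.1 and 7.85 CPM in No Strain. It was higher in all patch libraries, by 1.04 (standard error 0.23, edgeR adjusted p = 0.0181) for Strain and 1.09 (standard error 0.25, edgeR adjusted p = 0.0141) for No Strain. Zap70, the kinase that binds phosphorylated CD3 chains, had 3.00, 3.00, 3.35, 3.63 and 3.11 CPM in TD, 5.42, 10.1, 5.68 and 3.16 CPM in Strain and 7.56, 6.05 and 5.30 CPM in No Strain. It rose by 0.92 (standard error 0.26, edgeR adjusted p = 0.0411) and 0.97 (standard error 0.28, edgeR adjusted p = 0.0359), with Strain replicate 4 inside the TD range. Lat, the scaffold that Zap70 phosphorylates, had 4.65, 2.75, 4.03, 4.60 and 4.16 CPM in TD, 10.3, 11.4, 6.66 and 4.17 CPM in Strain and 8.82, 6.95 and 4.93 CPM in No Strain. Its change of 1.01 (standard error 0.28, edgeR adjusted p = 0.0393) for Strain was a call and that of 0.77 (standard error 0.30, edgeR adjusted p = 0.101) for No Strain was not. Skap1, an adaptor of T cell adhesion, had a mean of 1.64 ± 0.489 CPM (SD, n = 5) in TD, 2.96 ± 1.70 CPM (SD, n = 4) in Strain and 2.94 ± 0.941 CPM (SD, n = 3) in No Strain and was not called.

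Of 4 surface molecules of T cells, Cd2, Cd5 and Thy1 passed in none of the comparisons. Cd2, an adhesion receptor, had 4.41 ± 1.15 CPM (SD, n = 5) in TD, 6.22 ± 2.60 CPM (SD, n = 4) in Strain and 6.62 ± 1.14 CPM (SD, n = 3) in No Strain. Cd5, which damps receptor signals, had 2.75 ± 0.732 CPM (SD, n = 5) in TD, 5.20 ± 2.45 CPM (SD, n = 4) in Strain and 4.20 ± 1.67 CPM (SD, n = 3) in No Strain. Thy1, a surface protein of all mouse T cells, had 230 ± 41.7 CPM (SD, n = 5) in TD, 288 ± 80.6 CPM (SD, n = 4) in Strain and 272 ± 47.7 CPM (SD, n = 3) in No Strain. Thy1 was the most abundant of the 38 genes per length, with a mean of 76.8 CPM per kilobase of exon in TD, where Trbc2 had 12.1 and Gata3 18.5. Fibroblasts also carry Thy1, and 0 of 10 fibroblast markers passed for Strain against TD, with a summed level of 42994 to 67805 CPM in TD and 43749 to 74592 CPM in Strain. For No Strain 1 fibroblast marker, Pi16, was lower, and the sum ran from 54989 to 68935 CPM. The part of fibroblasts in the Thy1 level was not tested. Cd6, an adhesion receptor of T cells, had 2.43, 0.863, 1.59, 2.10 and 2.63 CPM in TD, 6.56, 8.42, 3.11 and 2.25 CPM in Strain and 7.34, 4.68 and 2.51 CPM in No Strain. It was called only in the comparison of both patches with TD, by 1.37 (standard error 0.41, edgeR adjusted p = 0.0314), and the libraries overlapped.

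The co-stimulatory and inhibitory receptor genes Cd28, Ctla4 and Icos lie together on chromosome 1 (60716800 to 61000320), and Icos had the largest fold change of these. This inducible co-stimulator of activated T cells had 3.99, 2.38, 4.46, 4.56 and 5.44 CPM in TD, 23.0, 19.2, 5.41 and 4.12 CPM in Strain and 9.86, 11.6 and 7.67 CPM in No Strain. Strain replicates 1 and 2 were high, while 3 and 4 lay in the TD range, and the change of 1.63 (standard error 0.46, edgeR adjusted p = 0.0418) passed for Strain. Without Strain replicate 1 it was 1.20 (edgeR adjusted p = 0.117), not a call. For No Strain 1.22 (standard error 0.50, edgeR adjusted p = 0.110) did not pass, although no library overlapped TD. The co-stimulatory receptor Cd28 had 1.48, 1.81, 1.40, 1.74 and 2.10 CPM in TD, 1.69, 3.11, 2.41 and 2.35 CPM in Strain and 2.88, 3.05 and 2.09 CPM in No Strain. It passed only for both patches together, by 0.57 (standard error 0.18, edgeR adjusted p = 0.0374), with overlap. Ctla4, an inhibitory receptor, passed in no comparison and had 3.11 ± 1.06 CPM (SD, n = 5) in TD, 7.60 ± 4.98 CPM (SD, n = 4) in Strain and 6.08 ± 1.51 CPM (SD, n = 3) in No Strain.

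Foxp3, the factor that defines regulatory T cells, had 2.92, 1.27, 2.87, 3.47 and 3.73 CPM in TD, 5.56, 4.55, 2.41 and 1.20 CPM in Strain and 3.24, 4.08 and 3.53 CPM in No Strain. The groups overlapped, and its log2 fold changes were 0.26 (standard error 0.40, edgeR adjusted p = 0.702) and 0.34 (standard error 0.43, edgeR adjusted p = 0.618). Set against Cd4 within each library, as a description, Foxp3 gave a count ratio of 0.292 to 0.614 in TD, 0.113 to 0.254 in Strain and 0.205 to 0.270 in No Strain. All 7 patch libraries lay below all TD libraries in this ratio. Its denominator differed too: Cd4 over Cd3e counts gave 0.904 to 1.90 in TD, 2.26 to 4.28 in Strain and 2.26 to 3.85 in No Strain. Cd4 is not confined to T cells, and the share of regulatory cells among T cells was not tested. Foxp3 exons overlap those of 4 other annotated genes, Ppp1r3f, Ccdc22, Flicr and Gm36995, with 6 to 363 counts each over all libraries, and Foxp3 had 888. Reads in the shared exons cannot be told apart.

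Of the cytokine receptors, Il2rb was called in each comparison with TD. It encodes the beta chain shared by the receptors of interleukins 2 and 15, on which NK cells depend. Its values were 9.13, 8.55, 11.2, 10.4 and 9.78 CPM in TD, 17.8, 46.0, 30.1 and 17.0 CPM in Strain and 37.1, 30.5 and 22.1 CPM in No Strain. No patch library overlapped TD, and log2 fold changes were 1.50 (standard error 0.27, edgeR adjusted p = 0.00965) and 1.61 (standard error 0.29, edgeR adjusted p = 0.00590). Il2ra encodes the alpha chain of the high-affinity interleukin 2 receptor of activated and regulatory T cells. It had 14.1, 6.61, 7.25, 8.24 and 8.86 CPM in TD, 19.4, 18.4, 8.80 and 10.9 CPM in Strain and 11.1, 18.4 and 21.1 CPM in No Strain. TD replicate 1 lay above Strain replicates 3 and 4, and the gene passed only for both patches together, by 0.79 (standard error 0.26, edgeR adjusted p = 0.0488). Il7r, needed by naive and memory T cells, passed in no comparison and had 32.5 ± 12.5 CPM (SD, n = 5) in TD, 41.0 ± 11.7 CPM (SD, n = 4) in Strain and 48.2 ± 6.47 CPM (SD, n = 3) in No Strain.

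The transcription factors of the list did not all go the same way. Tbx21 encodes T-bet, which drives interferon gamma production, and had 0.864, 0.493, 0.997, 0.404 and 0.614 CPM in TD, 0.497, 3.69, 2.92 and 1.77 CPM in Strain and 2.93, 2.23 and 1.58 CPM in No Strain. It rose by 1.72 (standard error 0.47, edgeR adjusted p = 0.0363) for Strain, where replicate 1 lay in the TD range, and by 1.73 (standard error 0.50, edgeR adjusted p = 0.0362) for No Strain. Eomes, its relative in NK and memory CD8 T cells, had 0.370, 0.616, 0.478, 0.323 and 0.482 CPM in TD, 0.348, 1.17, 1.09 and 0.863 CPM in Strain and 2.16, 0.901 and 1.35 CPM in No Strain. It rose for No Strain, by 1.68 (standard error 0.38, edgeR adjusted p = 0.0136), while the Strain value of 0.94 (standard error 0.37, edgeR adjusted p = 0.116) did not pass. Gata3, the factor of type 2 T cells, had 79.5, 52.1, 108, 70.2 and 59.2 CPM in TD, 42.8, 39.1, 55.0 and 29.6 CPM in Strain and 29.8, 36.4 and 14.2 CPM in No Strain. It was the 1 gene that fell, with a log2 fold change of -1.46 (standard error 0.33, edgeR adjusted p = 0.0132) for No Strain and no overlap with TD. For Strain the value was -0.82 (standard error 0.29, edgeR adjusted p = 0.0806), not a call. Keratinocytes and hair follicles also express Gata3. Its mean in TD was 73.7 CPM, where Cd3e had 4.53 CPM and Cd4 had 5.64 CPM. Of 10 keratinocyte markers 1, Col17a1, was lower in each patch group, and their summed level ran from 10041 to 13718 CPM in TD, 10828 to 17522 CPM in Strain and 6690 to 18990 CPM in No Strain. The part of keratinocytes in the Gata3 result was not tested. Tcf7, a factor of naive and memory T cells, passed in no comparison and had 8.26 ± 1.59 CPM (SD, n = 5) in TD, 9.12 ± 2.57 CPM (SD, n = 4) in Strain and 7.86 ± 0.663 CPM (SD, n = 3) in No Strain.

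Of 7 killer cell genes, 5 passed in each patch group (Gzma, Gzmb, Nkg7, Klrk1 and Ncr1), all higher. Over all genes 6.2% were called higher for Strain and 9.35% for No Strain. Of these 5, only Gzma and Gzmb passed in all 12 fits with 1 library left out, in both comparisons. The matching share over all called genes was not computed. Granzyme A (Gzma, chr13:113093825-113100981), a protease of killer cell granules, had 1.89, 2.26, 3.59, 0.808 and 1.89 CPM in TD, 3.93, 27.2, 12.3 and 10.5 CPM in Strain and 19.8, 16.5 and 14.8 CPM in No Strain. All patch libraries lay above TD. Log2 fold changes were 2.69 (standard error 0.49, edgeR adjusted p = 0.00986) and 3.02 (standard error 0.52, edgeR adjusted p = 0.00477). Granzyme B (Gzmb), which triggers death of target cells, had 1.73, 2.18, 2.63, 2.91 and 2.59 CPM in TD, 11.1, 14.9, 7.28 and 4.03 CPM in Strain and 14.3, 10.5 and 6.83 CPM in No Strain. It did not overlap TD either and rose by 1.95 (standard error 0.35, edgeR adjusted p = 0.00890) and 2.13 (standard error 0.37, edgeR adjusted p = 0.00477). Perforin (Prf1), which opens the target membrane, had 3.41, 4.07, 5.50, 3.76 and 3.29 CPM in TD, 1.34, 12.2, 7.48 and 5.22 CPM in Strain and 8.42, 7.72 and 5.53 CPM in No Strain. Strain replicate 1 had the lowest value of all 12 libraries, and the changes of 0.72 (standard error 0.44, edgeR adjusted p = 0.304) and 0.85 (standard error 0.47, edgeR adjusted p = 0.235) did not pass.

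Nkg7, a granule membrane protein of killer cells, had 2.51, 1.73, 2.63, 2.42 and 2.24 CPM in TD, 2.14, 10.6, 8.80 and 4.51 CPM in Strain and 11.1, 7.29 and 5.44 CPM in No Strain. It rose by 1.50 (standard error 0.39, edgeR adjusted p = 0.0313) and 1.78 (standard error 0.41, edgeR adjusted p = 0.0157). Ncr1 encodes NKp46, an activating receptor largely restricted to NK cells and other innate lymphoid cells, and had 0.823, 1.23, 1.63, 0.888 and 1.27 CPM in TD, 1.34, 8.55, 4.59 and 3.26 CPM in Strain and 4.86, 5.66 and 2.51 CPM in No Strain. The log2 fold changes were 1.92 (standard error 0.45, edgeR adjusted p = 0.0225) and 1.89 (standard error 0.48, edgeR adjusted p = 0.0224). Klrk1 encodes NKG2D, the activating receptor for stress ligands on NK, CD8 and gamma delta T cells, and had 2.80, 2.55, 3.59, 3.15 and 3.16 CPM in TD, 3.18, 17.9, 10.4 and 6.47 CPM in Strain and 13.9, 11.8 and 4.97 CPM in No Strain. It rose by 1.64 (standard error 0.43, edgeR adjusted p = 0.0317) and 1.74 (standard error 0.45, edgeR adjusted p = 0.0246). Klrb1c, the NK1.1 receptor gene, had 4, 15, 14, 12 and 6 counts in TD, 5, 39, 33 and 26 counts in Strain and 44, 15 and 24 counts in No Strain. It was called only for both patches together, by 1.50 (standard error 0.47, edgeR adjusted p = 0.0395), and Strain replicate 1 lay in the TD range.

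Strain replicate 1 was below all TD libraries for Prf1 and in the TD range for Tbx21, Eomes, Nkg7, Klrb1c, Klrk1, Ncr1 and Ifng, while its Gzmb, Cd4, Icos and Il17a were above all TD values. The summed level of Klrb1c, Klrk1 and Ncr1 was 4.77 CPM there, 11.0 to 28.2 CPM in the other 3 Strain libraries, 8.60 to 20.7 CPM in No Strain and 3.78 to 5.78 CPM in TD. Without this library the log2 fold change for Strain against TD was 2.22 for Ncr1 (edgeR adjusted p = 0.00981). It was 1.05 for Prf1 (edgeR adjusted p = 0.0372) and 4.98 for Il17a (edgeR adjusted p = 0.0177). Prf1, Klrb1c and Eomes became calls, while Icos was no longer a call. The library was singled out after its values were seen. Leaving it out raises the Strain mean of genes that were low in it, so these changes are no test of those genes. In that fit 8.92% of all genes passed, beside 12.6% with all libraries.

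**Figure D4:**
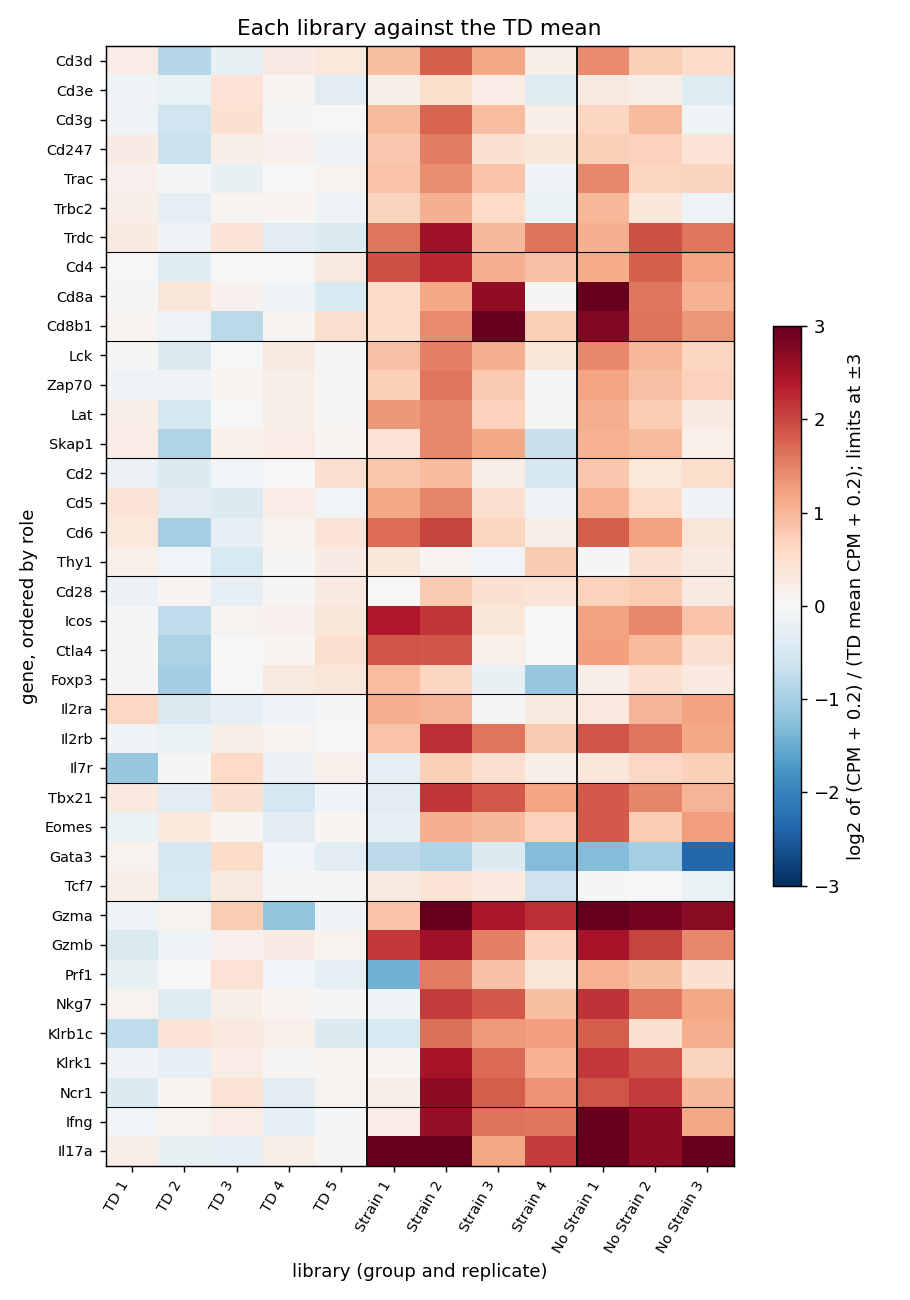
Each gene in each library as log2 of its CPM over the TD mean, with 0.2 CPM added to both (color, limits at ±3), with genes ordered by role. In Strain replicate 1 the rows from Nkg7 to Ifng stay near 0 while Icos and Il17a are high, and in No Strain replicate 1 and Strain replicate 3 Cd8a and Cd8b1 stand out.

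Strain and No Strain were compared directly to ask what the imposed strain itself changed. None of the 38 genes passed in edgeR (0 at an unadjusted p under 0.05, where 5.61% of all genes passed) or in DESeq2 (0, where 0.177% passed). No member separated the 2 groups, where 2.85% of genes were higher and 2.77% lower without overlap (5.62% in all). Log2 differences ran from -0.87 for Ifng to 0.63 for Gata3, with standard errors of 0.22 to 0.71. The smallest unadjusted p was 0.0780, for Gata3 (edgeR adjusted p = 0.872). A p that misses the threshold does not show that the 2 patches act alike.

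Other genes of T and NK cells were read from a list of 102, of which 95 were tested. For Strain against TD 32 were higher and 1 lower, and for No Strain against TD 35 were higher and 2 lower. For both patches together 41 were higher and 6 lower, where 24.4% of all genes passed (12.4% higher and 12.1% lower). Between Strain and No Strain 0 passed, as did 0 of all genes in edgeR. At an unadjusted p under 0.05 there were 4, where 5.61% of all genes passed. The median log2 fold change of the 95 genes was 0.61 and 0.70 for Strain and No Strain against TD. Over all genes 12.6% (6.2% higher) passed for Strain against TD and 17.8% (9.35% higher) for No Strain against TD. By class, 8 of 20 tested surface and co-receptor genes were higher for Strain and 11 for No Strain. Of 17 signalling genes 4 and 5 were higher, of 14 cytokine and cytokine receptor genes 6 and 6, of 13 homing genes 3 and 3, and of 15 killer cell genes 5 and 6. Of 12 transcription factors 4 were higher and 1 lower for Strain, and 5 higher and 2 lower for No Strain. Of 6 receptor constant and gamma delta genes 3 were higher for Strain and 0 for No Strain.

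In each comparison with TD the gene of this list with the smallest p was Cxcr6, a chemokine receptor of tissue-resident T and NK cells. It had 3.29, 2.14, 3.23, 2.46 and 2.54 CPM in TD, 14.6, 24.0, 12.1 and 8.72 CPM in Strain and 14.2, 13.0 and 8.46 CPM in No Strain, no overlap, and log2 fold changes of 2.44 (standard error 0.28, edgeR adjusted p = 0.00245) and 2.12 (standard error 0.29, edgeR adjusted p = 0.00249). Pdcd1, the inhibitory receptor PD-1, rose by 2.54 (standard error 0.36, edgeR adjusted p = 0.00437) and 2.20 (standard error 0.38, edgeR adjusted p = 0.00477). Itgal, the alpha chain of the leukocyte integrin LFA-1, rose by 1.49 (standard error 0.24, edgeR adjusted p = 0.00647) and 1.60 (standard error 0.25, edgeR adjusted p = 0.00371). Il2rg, the common gamma chain of interleukin receptors, rose by 1.14 (standard error 0.18, edgeR adjusted p = 0.00582) for Strain. Cd52, a leukocyte surface peptide, and Cd244a, an NK receptor, rose by 1.45 (standard error 0.22, edgeR adjusted p = 0.00305) and 1.15 (standard error 0.19, edgeR adjusted p = 0.00385) for No Strain. For Strain, Cd52 also rose, by 1.23 (standard error 0.20, edgeR adjusted p = 0.00728), and Cd244a at 0.58 (standard error 0.18, edgeR adjusted p = 0.0517) did not pass. Genes were named by smallest p per comparison, so a gene named for 1 patch group may also pass for the other.

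Of the genes that were lower, Zbtb16, the factor PLZF of innate-like T cells, fell in both comparisons, with log2 fold changes of -1.03 (standard error 0.29, edgeR adjusted p = 0.0399) and -1.31 (standard error 0.32, edgeR adjusted p = 0.0205). Trat1, a T cell receptor adaptor, and Il13, a type 2 cytokine, fell with both patches together, with log2 fold changes of -0.96 (standard error 0.26, edgeR adjusted p = 0.0198) and -1.28 (standard error 0.39, edgeR adjusted p = 0.0348). Il17f, the partner cytokine of Il17a, was named after its values were seen. It had 10, 1, 0, 1 and 0 counts in TD, 346, 314, 18 and 18 counts in Strain and 229, 46 and 180 counts in No Strain, with changes of 6.30 (standard error 1.27, edgeR adjusted p = 0.0133) and 6.04 (standard error 1.31, edgeR adjusted p = 0.0119).

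Markers of other cells were read beside these results. Over all genes, 12.6% passed for Strain against TD (6.2% higher and 6.41% lower). The share was 17.8% for No Strain against TD (9.35% higher and 8.4% lower). Of 10 neutrophil markers 9 were higher for Strain and 7 for No Strain, and their sum ran from 493 to 1689 CPM in TD, 963 to 8763 CPM in Strain and 2181 to 5274 CPM in No Strain. It was highest in Strain replicate 1. Of 10 pan-leukocyte markers (Cd52 is also in the list of 102) 3 and 5 were higher, with sums of 654 to 1375 CPM in TD, 1093 to 1786 CPM in Strain and 1488 to 1967 CPM in No Strain. Endothelial markers were higher for 6 of 10 in each comparison, with sums of 514 to 641 CPM in TD, 641 to 919 CPM in Strain and 709 to 823 CPM in No Strain. Adipocyte markers were lower for 5 and 8 of 10, with sums of 1170 to 2688 CPM in TD, 824 to 1247 CPM in Strain and 597 to 910 CPM in No Strain. Macrophage markers were higher for 1 of 10 in each comparison, with sums of 1220 to 2833 CPM in TD, 2071 to 2840 CPM in Strain and 1999 to 3088 CPM in No Strain. Mast cell markers were higher for 1 of 10 in each, with sums of 275 to 542 CPM in TD, 309 to 473 CPM in Strain and 338 to 430 CPM in No Strain. B cell and plasma cell markers were higher for 0 and 1 of 9 tested, with sums of 71.7 to 308 CPM in TD, 44.7 to 101 CPM in Strain and 60.2 to 255 CPM in No Strain. Dendritic cell markers were lower for 0 and 1 of 10, with sums of 66.7 to 186 CPM in TD, 87.2 to 116 CPM in Strain and 97.1 to 108 CPM in No Strain. No marker of these lists was at 0 in all libraries, and the part of these cells in the results was not tested.

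Skeletal muscle markers were lower for 6 of 9 tested genes in Strain and 2 of 9 in No Strain. Their sum ran from 5428 to 13294 CPM in TD, 2542 to 5041 CPM in Strain and 3733 to 8315 CPM in No Strain. All Strain libraries lay below all TD libraries in this sum, so muscle content and the Strain dressing cannot be told apart. All No Strain libraries lay below TD in the adipocyte sum and above TD in the endothelial, neutrophil and pan-leukocyte sums. Those contents and the No Strain dressing cannot be told apart either. With the mean of these markers as a covariate, 0 of the 38 genes passed for Strain against TD, where 0.00537% of all genes passed. For No Strain against TD 5 passed (Cd8a, Il2rb, Eomes, Gzma and Il17a), where 3.51% of all genes passed.

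The number of Strain calls changed with single libraries. They numbered 6 without Strain replicate 2, where 4.75% of all genes passed, and 7 without TD replicate 4, where 6.88% passed. They numbered 9 without each other TD library, where 7.03% to 10.6% passed, and 11 without No Strain replicate 2, where 11.1% passed. Those that passed in all 12 fits with 1 library left out were Cd4, Trdc, Il2rb, Gzma, Gzmb and Il17a, 6 of 19. For No Strain against TD, 8 genes passed without No Strain replicate 1, where 8.74% of all genes passed, and these 8 of 18 passed in all 12 such fits: Cd4, Trdc, Il2rb, Gata3, Gzma, Gzmb, Ifng and Il17a. The share of all called genes that passed in all 12 fits was not computed, so whether the members are more stable than other called genes is not known.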

How the data were processed

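RNA of 12 snap-frozen wounds was enriched with oligo(dT) beads and sequenced, per the labels' protocols. Each library has a table of raw counts per Ensembl gene, deposited by the authors. The submitters' processing notes name bcl2fastq 2.17, cutadapt, STAR, featureCounts and the build GRCm38. Strand setting, annotation release and treatment of reads that match several genes are not given in the sources used here. Of 54232 identifiers, 54079 matched a GENCODE M21 symbol (GRCm38), which also gave positions and exon lengths.

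Genes were kept by filterByExpr of edgeR 4.0.16 (minimum count 10, minimum total 15), scaled by TMM and fitted with robust quasi-likelihood over all 12 libraries in R 4.3.3. P-values were adjusted over 18618 genes and called under 0.05. Standard errors come from the fold change and its F statistic. Members, lists and tests were chosen with earlier results of these data known. Values in every library are given for members called in any comparison (27 of 38) and for defining members. Of the 102 other T and NK cell genes, those named are the up to 4 with the smallest p in each direction per comparison, except 1 gene that is not reported here. All members were in the fit, so the planned exact test for filtered members was not needed. Alternatives used DESeq2 1.42.0, limma 3.58.1 (voom with quality weights), other scalings and filters, covariates and left-out libraries.

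Groups came from the group label. The labels do not say whether wounds shared a mouse, so p-values measure the spread between these samples. Chi-square per degree of freedom was 8.69 to 67.1 over 19 replicate pairs, so no pair agreed within sampling noise. Intervals cover counting error only. Sample titles number TD wounds 1 to 6 and patch wounds 7 to 15, so an order these numbers may reflect and the dressing cannot be told apart. Within Strain, replicates 1 and 2 are numbered 7 and 10, and replicates 3 and 4 are numbered 14 and 15. The split of Il17a between these pairs runs along the same numbers, and a link was not tested.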

Additional observations from a re-analysis of the deposited data

Results flagged for a closer look

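Each of the 38 genes was screened in the 5 TD and the 4 Strain libraries for a library far from the rest of its group. The screen used the log of CPM with 1 added, while the values below are plain CPM. Of 76 group values 4 stood apart, and chance gives about 3.8. In TD replicate 2, Lat was lowest at 2.75 CPM, with the next TD library at 4.03 CPM. Foxp3 was lowest there too, at 1.27 CPM against 2.87 CPM, and so was Skap1, at 0.781 CPM against 1.71 CPM. In Strain replicate 4, Tcf7 was lowest at 5.32 CPM, with the next Strain library at 9.94 CPM.

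Leaving out TD replicate 2 together with Strain replicate 1, a choice made after their values were seen, left 13 of the 38 genes called when Strain was set against TD, and 17 with No Strain, where 5.25% and 12.8% of all genes passed.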

How the results depend on the processing

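The count of called members, 19 for Strain against TD, was 9 with limma-voom (10.1% of all genes), 11 without a filter on low counts (4.28%), 9 with the title letter as a covariate (4.29%) and 0 with the muscle list as a covariate (0.00537%), beside 12.6% in the first fit. The letters are L or R, and their meaning is not given in the sources used here. TD has 1 L and 4 R, Strain 3 L and 1 R and No Strain 2 L and 1 R, so letter and dressing are partly confounded. The count ran from 6 to 23 when 1 library was left out (4.75% to 13.3% of all genes). For No Strain against TD the 18 calls became 5 with the muscle list as a covariate (3.51%) and ran from 8 to 20 with 1 library left out (7.88% to 18.4%, beside 17.8%). For both patches the 26 calls became 0 with the muscle list (0.188%) and ran from 18 to 30 (17.2% to 24.7%, beside 24.4%). Between Strain and No Strain the count was 0 in all settings run, and from 0 to 0 with 1 library left out. The other settings stayed within 1.5 times these counts: DESeq2 gave 24, 23 and 29 calls in the 3 comparisons with TD (18.9%, 23.5% and 29.5% of all genes), and library totals alone 18, 18 and 24 (12.2%, 17.7% and 23.9%). No called fold change reversed in any setting. Apart from the fewer samples or more genes tested that some settings bring, the cause was not tested. No paired analysis was possible because the group labels carry no replicate numbers and the title numbers differ between groups. Genes of under 1 CPM, such as Klrb1c and Ifng in TD, are limited by counting error.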

Other observations

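Counts of alpha and beta variable segments, each a short part of the receptor gene, gave a second view of the T cells. The 128 Trav genes together had 1.36 to 1.89 CPM in TD, 1.63 to 3.42 CPM in Strain and 2.36 to 4.28 CPM in No Strain. For the 35 Trbv genes the sums were 0.945 to 1.97 CPM in TD, 1.39 to 3.97 CPM in Strain and 2.37 to 6.03 CPM in No Strain. The most abundant beta segment differed between libraries. In No Strain replicate 1, the library with the highest Cd8a, Trbv15 held 43 of 134 Trbv counts, 32.1% (95% exact interval 24.3 to 40.7, counting error only). In the other 11 libraries Trbv15 had 0 to 5 counts. In Strain replicate 3, the library with the second highest Cd8a, the leading segment was Trbv13-2 with 18 of 102 counts, 17.6% (10.8 to 26.4). Trbv15 and these 2 libraries were picked after their values were seen, and near-identical segments can share reads.

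Within each library the ratio of Cd8a to Cd4 counts was 0.141 to 0.425 in TD, 0.0975 to 0.136 in Strain replicates 1, 2 and 4 and 0.819 in Strain replicate 3. In No Strain it was 1.24 in replicate 1 and 0.231 to 0.235 in replicates 2 and 3. The granzyme genes of the wider list did not all go one way. Gzmf and Gzmk rose with both patches together, by 2.87 (standard error 0.57, edgeR adjusted p = 0.00557) and 3.34 (standard error 0.79, edgeR adjusted p = 0.0120), while Gzmc fell, with a log2 fold change of -1.19 (standard error 0.39, edgeR adjusted p = 0.0464). Gzmc had 6.34, 4.44, 7.10, 9.61 and 5.83 CPM in TD, 1.74, 1.31, 5.92 and 2.88 CPM in Strain and 2.75, 4.63 and 1.21 CPM in No Strain. These 3 were named after their values were seen, and Gzmc and Gzmf are close copies whose reads the counting could have split. The other granzyme genes of that list, Gzmd, Gzme and Gzmm, were not called for Strain against TD. Their log2 fold changes there were -1.24 (standard error 0.45, edgeR adjusted p = 0.0940), -0.94 (standard error 0.61, edgeR adjusted p = 0.331) and -0.34 (standard error 0.32, edgeR adjusted p = 0.503).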
